A study of Mus musculus with 6 samples.

Results

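The genes described here encode 10 enzymes and partners that write or remove methyl groups on DNA and histones: Dnmt1, Uhrf1, Dnmt3a, Dnmt3b, Tet1, Tet2, Tet3, Ezh2, Kmt2a and Kmt2d. They were chosen by Ensembl gene ID (ENSMUSG00000004099 for Dnmt1, ENSMUSG00000001228 for Uhrf1, ENSMUSG00000020661 for Dnmt3a, ENSMUSG00000027478 for Dnmt3b, ENSMUSG00000047146 for Tet1, ENSMUSG00000040943 for Tet2, ENSMUSG00000034832 for Tet3, ENSMUSG00000029687 for Ezh2, ENSMUSG00000002028 for Kmt2a and ENSMUSG00000048154 for Kmt2d). All 10 were found among the 48505 genes of the deposited tables, where they cover 5023 of 5193362 windows. The study exposed pregnant wild-type FVB/NJ mice, 10 weeks old, by inhalation of the whole animal. In the nano-TiO2 group the dams breathed an aerosol of engineered titanium dioxide nanoparticles at a target of 12 mg/m3 for 360 minutes on each of 6 days spread over 8 days, starting on gestational day 5. In the sham group the dams breathed filtered room air. Fetal hearts were taken on gestational day 15 and pooled over male and female fetuses. RNA fragments carrying N6-methyladenosine (m6A), a methyl mark on RNA, were then pulled down with a polyclonal antibody and sequenced. The series holds 3 nano-TiO2 and 3 sham immunoprecipitate (IP) libraries. Which litters went into which pool is not given, so p-values measure only the spread between these 6 samples, which may be technical. The matching input libraries are not used here.

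As background, Dnmt1 copies methylation of cytosine onto newly made DNA, and Uhrf1 recognises half-methylated DNA and brings Dnmt1 to it. Dnmt3a and Dnmt3b set methylation on sites that had none. The Tet enzymes oxidise methylated cytosine, the first step towards its removal. Ezh2 is the catalytic subunit of the Polycomb complex that places a repressive histone mark, while Kmt2a and Kmt2d place activating histone marks at promoters and enhancers. In mice, loss of Ezh2 or Kmt2d from cardiac cells disturbs heart development. Transcripts can themselves carry m6A, and the pull-down of a transcript depends both on how much transcript is present and on how much of it is marked.

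Libraries held 20205024 to 28251706 reads in nano-TiO2 and 22151447 to 31523675 in sham. The 10 genes took 7657 to 15221 reads per nano-TiO2 library and 4444 to 8698 per sham library, which is 0.0379% to 0.0633% of all reads in nano-TiO2 and 0.0201% to 0.0282% in sham. The 4 genes with the most reads in the series took 8.03% to 18.0% of reads in nano-TiO2 and 20.6% to 35.2% in sham libraries. Only the IDs of the 10 genes are paired with symbols here, so the label of heart tissue was not checked against marker genes. In these pooled hearts, fewer cells of a type and less RNA per cell cannot be told apart.

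The first comparison asked whether the IP level of these genes, summed over a gene's windows and given in normalized reads, differed between nano-TiO2 and sham fetal hearts. Transcripts of the 3 Tet enzymes, Kmt2a, Dnmt3a and Ezh2 were higher in the nano-TiO2 pull-down, by 1.56-fold in Dnmt3a to 4.31-fold in Tet1. Dnmt1, Uhrf1, Dnmt3b and Kmt2d did not pass the test. All 10 passed the filter on low values (a mean of at least 10). In all, 6 of the 10 rose and none fell, at an adjusted p of 0.05 in a limma fit over 18566 genes on log2(normalized value + 1), two-sided, with Benjamini-Hochberg adjustment over all of them. Over all genes tested, 36.0% passed in either direction and 24.0% rose. The median log2 change of the 10 was 0.66, against 0.13 over all genes tested. The groups did not overlap in 6 of the 10 genes, each higher in nano-TiO2, and this held for 30.9% of all genes tested. The count depends on how libraries are scaled. With equal totals 9 of the 10 rose, all but Uhrf1, where 43.1% of all genes rose and the median of all genes was 0.61. With totals made equal over all but the 4 most abundant genes 7 rose, Kmt2d being added, where 33.9% of all genes rose and their median was 0.39. After quantile normalization 5 rose, Ezh2 being lost, where 16.6% of all genes rose and their median was -0.05.

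**Figure D1:**
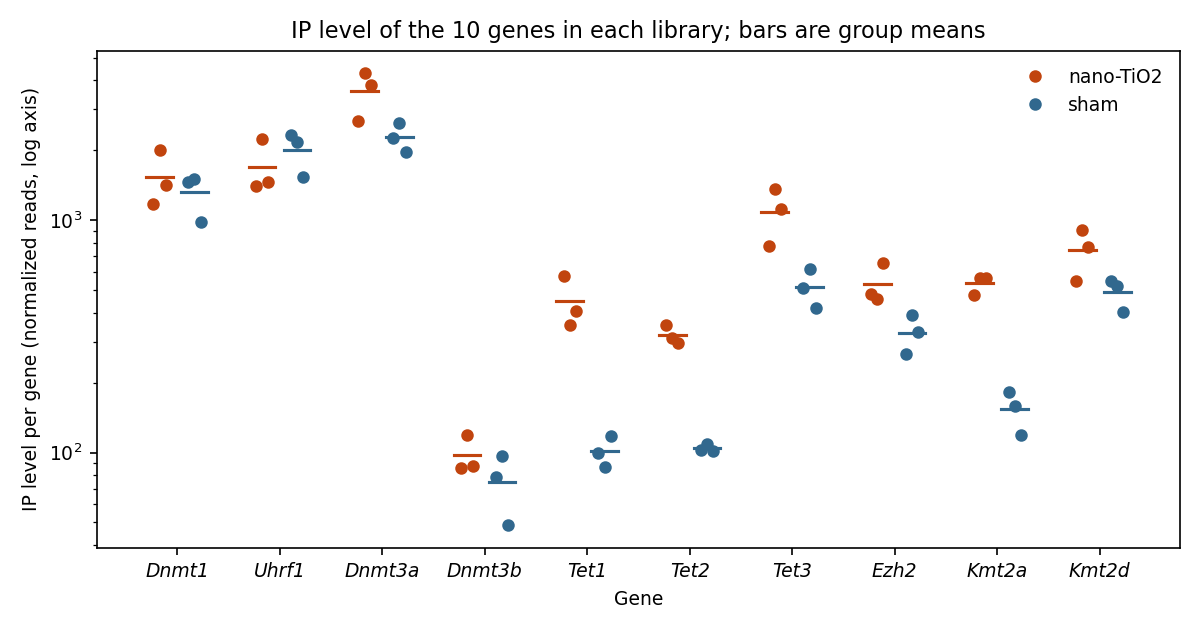
IP level of each gene (vertical axis, normalized reads summed over windows, log axis) in the 3 nano-TiO2 libraries (left points) and the 3 sham libraries (right points), with bars at the group means. The groups are apart in Dnmt3a, Tet1, Tet2, Tet3, Ezh2 and Kmt2a, and they overlap in Dnmt1, Uhrf1, Dnmt3b and Kmt2d.

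Among the genes of maintenance methylation, Dnmt1 had 1177, 2008 and 1408 normalized reads in nano-TiO2 replicates 1, 2 and 3, against 1464, 1495 and 981 in sham replicates 1, 2 and 3. The groups overlapped, with the highest and the lowest value in nano-TiO2 replicate 2 and sham replicate 3. Its log2 change was 0.21 ± 0.24 (SE, adjusted p = 0.521, limma). Uhrf1, the partner of Dnmt1, had 1397, 2237 and 1458 normalized reads in nano-TiO2 and 2312, 2158 and 1527 in sham. Its groups overlapped too, and it was the single gene of the 10 with a negative change, -0.25 ± 0.23 (SE, adjusted p = 0.427, limma). That sign depended on scaling: with equal library totals the change of Uhrf1 was 0.25 (adjusted p = 0.456, limma).

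Of the enzymes that set new methylation, Dnmt3a had 2679, 4275 and 3814 normalized reads in nano-TiO2, against 2262, 2610 and 1960 in sham. The lowest nano-TiO2 library stood just above the highest sham library in Dnmt3a, and the log2 change was 0.64 ± 0.20 (SE, adjusted p = 0.0329, limma). This call was lost when nano-TiO2 replicate 2 (adjusted p = 0.0814), nano-TiO2 replicate 3 (0.11), sham replicate 1 (0.0847) or sham replicate 3 (0.0929) was omitted. Dnmt3b was far scarcer, with 77, 144 and 109 reads in nano-TiO2 and 87, 88 and 36 reads in sham. In normalized reads it had 85.9, 119 and 87.8 in nano-TiO2, against 78.3, 96.4 and 48.6 in sham. The groups overlapped, and the log2 change was 0.42 ± 0.29 (SE, adjusted p = 0.279, limma).

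The Tet genes stood further apart. Tet1 had 577, 355 and 407 normalized reads in nano-TiO2 and 99.85, 86.5 and 118 in sham. Every nano-TiO2 library was above every sham library, the means were 446 ± 116 and 101 ± 15.6 (SD, n = 3 each), and the log2 change of 2.11 ± 0.22 (SE) was the highest of the 10 genes (adjusted p = 0.00058, limma). Tet2 had 355, 312 and 296 normalized reads in nano-TiO2 and 103, 108 and 101 in sham. Its libraries lay close together within each group, with means of 321 ± 30.3 and 104 ± 3.79 (SD, n = 3 each), and its log2 change was 1.61 ± 0.17 (SE, adjusted p = 0.00058, limma). Tet3, the most strongly pulled down of the family, had 771, 1360 and 1120 normalized reads in nano-TiO2 and 511, 617 and 420 in sham. Its groups did not overlap, and its log2 change was 1.05 ± 0.23 (SE, adjusted p = 0.00842, limma).

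Of the histone methyltransferase genes, Kmt2a had 476, 565 and 561 normalized reads in nano-TiO2, against 182, 159 and 119 in sham. The groups lay well apart, with means of 534 ± 50.1 and 153 ± 31.8 (SD, n = 3 each) and a log2 change of 1.81 ± 0.20 (SE, adjusted p = 0.000599, limma). Kmt2d, its relative that acts mainly at enhancers, had 546, 905 and 767 normalized reads in nano-TiO2 and 546, 519 and 403 in sham. Here the groups met, since nano-TiO2 replicate 1 and sham replicate 1 had nearly the same level. The log2 change of Kmt2d was 0.58 ± 0.22 (SE, adjusted p = 0.0654, limma), and it passed without nano-TiO2 replicate 1 (0.78, adjusted p = 0.0191, limma). Ezh2 had 479.8, 459 and 653 normalized reads in nano-TiO2 and 266, 389.9 and 328 in sham. Its groups did not overlap, with a log2 change of 0.69 ± 0.20 (SE, adjusted p = 0.0275, limma). This call was lost without nano-TiO2 replicate 3 (adjusted p = 0.111), sham replicate 1 (0.0955) or sham replicate 3 (0.0561), and after quantile normalization (0.114).

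Single libraries stood out across the genes. Nano-TiO2 replicate 2 was the highest nano-TiO2 library for 7 of the 10 genes, and sham replicate 3 the lowest sham library for 8. Tet1 and Tet2 differed from this order, being highest in nano-TiO2 replicate 1, and Ezh2 was highest in nano-TiO2 replicate 3. Such counts were not made over all genes. Over the whole series nano-TiO2 replicate 2 also had the most windows with a read (1484331), and sham replicate 3 the fewest (997523). Averaged over the 10 genes, the log2 level relative to each gene's mean was 0.27, 0.61 and 0.45 in nano-TiO2 replicates 1, 2 and 3 and -0.38, -0.29 and -0.66 in sham replicates 1, 2 and 3. Of the other genes tested, ENSMUSG00000026812 and ENSMUSG00000034088 had the profiles most like this average, with Pearson's r of 0.999 each over the 6 libraries. Their own log2 changes were 1.22 and 0.85.

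Long genes rose more often than short ones in this series. The 10 genes have 170 to 797 windows, against a median of 63 over all genes, tested or not. The genes tested were longer, and a class in the middle of their order by length held genes of 124 to 138 windows. Against those, Uhrf1 (170 windows) and Dnmt3b (204 windows) were only modestly long. Among the 924 genes tested that had 458 windows or more, the median log2 change was 1.06 with quartiles of 0.63 and 1.40. Tet1, Tet2 and Kmt2a lay above these quartiles, Dnmt3a and Tet3 within them, and Kmt2d below them. Ezh2 and Dnmt1, set against 932 genes of 266 to 305 windows with a median of 0.63, lay within the quartiles of 0.14 and 1.09. Dnmt3b lay within the quartiles of its length class, -0.13 and 0.80, while Uhrf1 lay below those of its own, -0.17 and 0.73. With the trend on length removed from each library, Tet1 (log2 change 1.07, adjusted p = 0.0145), Kmt2a (0.74, adjusted p = 0.027) and Tet2 (0.53, adjusted p = 0.0407) still passed, 3 of the 10, where 11.4% of all genes rose (limma). Tet3 then had a change of -0.03 (adjusted p = 0.933), Dnmt3a of -0.44 (0.116), Ezh2 of 0.15 (0.581), Kmt2d of -0.59 (0.0778) and Dnmt1 of -0.40 (0.183).

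**Figure D2:**
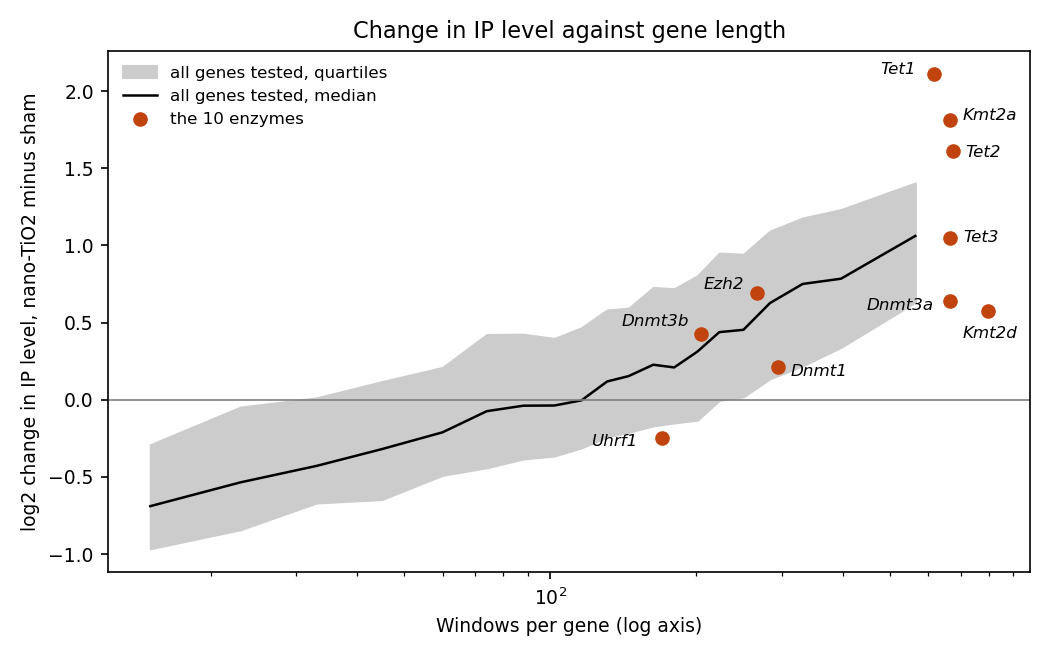
Log2 change in IP level, nano-TiO2 minus sham (vertical axis), against the number of windows per gene (horizontal axis, log axis), with the median (line) and quartiles (grey band) of all genes tested in 20 classes of length, each placed at the median of its windows. Tet1, Kmt2a and Tet2 sit above the band of long genes, and Uhrf1 sits below the band at its length.

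Levels were compared between genes per window, since windows start 25 nucleotides apart and so stand for length. Uhrf1 was the highest, with 9.98 normalized reads per window in nano-TiO2 and 11.8 in sham. Dnmt1 (5.19 in nano-TiO2, 4.45 in sham) and Dnmt3a (5.40 in nano-TiO2, 3.42 in sham) followed, and they changed places between the groups. Ezh2 came next with 1.99 in nano-TiO2 and 1.23 in sham, then Tet3 with 1.63 in nano-TiO2 and 0.77 in sham, and Kmt2d with 0.93 in nano-TiO2 and 0.61 in sham. These neighbours in the order were not tested against each other, and the libraries of Dnmt1 and Dnmt3a overlapped. The lowest levels in nano-TiO2 were those of Kmt2a (0.80), Tet1 (0.72), Dnmt3b (0.479) and Tet2 (0.476). In sham the order of these low genes was different, with Dnmt3b at 0.36, Kmt2a at 0.23, Tet1 at 0.16 and Tet2 at 0.15.

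Ratios of gene pairs within a library do not depend on how libraries are scaled, and 4 pairs were compared. Kmt2a over Kmt2d, per window, was 1.04, 0.75 and 0.88 in nano-TiO2 replicates 1, 2 and 3 and 0.40, 0.37 and 0.35 in sham replicates 1, 2 and 3. The groups did not overlap, and the difference in log2 ratio was 1.24. Dnmt1 over Uhrf1 was 0.49, 0.52 and 0.56 in nano-TiO2 and 0.37, 0.40 and 0.37 in sham, again without overlap, with a log2 difference of 0.46. Each of these gave an exact two-sided permutation p of 0.1, the smallest that 3 against 3 libraries allow, and 0.2 after adjustment over the 4 pairs. How often the ratios of other gene pairs stay apart was not counted, so the separation is not read as particular to these pairs. Dnmt1 and Uhrf1 differ in length, and the median log2 change was 0.63 in the length class of Dnmt1 and 0.23 in that of Uhrf1. With the length trend removed, Dnmt1 changed by -0.40 and Uhrf1 by -0.50. The part of length in their ratio was not tested. Tet1 over Tet3 was 0.81, 0.28 and 0.39 in nano-TiO2 and 0.21, 0.15 and 0.30 in sham, so its groups overlapped (log2 difference 1.07, exact permutation p = 0.2, adjusted 0.267). Dnmt3a over Dnmt3b was 9.57, 11.01 and 13.3 in nano-TiO2 and 8.87, 8.31 and 12.4 in sham (log2 difference 0.21, exact permutation p = 0.4, adjusted 0.4). In the adjusted values described below, the groups stayed apart for Kmt2a over Kmt2d (log2 difference 0.58, or 0.41 without the rounding of windows) and overlapped for Dnmt1 over Uhrf1 (0.12).

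The second comparison used the values that the authors call adjusted, which equal the normalized values divided by 1 factor per gene and library. What the factor was made from is not stated in the sources used here. All 10 genes had a higher mean adjusted level in nano-TiO2, with log2 changes of 0.11 in Ezh2 to 0.82 in Kmt2a, and none passed (adjusted p from 0.179 to 0.735, limma over 19361 genes). Over all genes tested 0% passed. At an unadjusted p under 0.05 there were 6 of the 10, where 16.5% of all genes were higher at that threshold. The median log2 change of the 10 was 0.32, against 0.17 over all genes. The groups did not overlap in 5 genes, each higher in nano-TiO2, which held for 19.4% of all genes.

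Kmt2a had adjusted levels of 406, 482 and 438 in nano-TiO2 and 249, 254 and 244 in sham, a log2 change of 0.82 ± 0.14 (SE, adjusted p = 0.179, limma). Tet1 had 345, 311 and 341 in nano-TiO2 and 202, 249 and 189 in sham (0.65 ± 0.16 SE, adjusted p = 0.179, limma). These sums depend on the rounding of each adjusted window to a whole number. With the normalized sum divided by the recovered factor instead, Kmt2a had 365, 441 and 365 in nano-TiO2 and 265, 241 and 225 in sham, still apart (0.68 ± 0.15 SE, adjusted p = 0.164, limma over 13808 genes). On that scale Tet1 had 274, 283 and 312 in nano-TiO2 and 187, 266 and 206 in sham, a smaller change of 0.41 ± 0.17 (SE, adjusted p = 0.221, limma), and its groups overlapped within the bounds of the factor, 258.5 to 291 in nano-TiO2 replicate 1 and 257 to 276.5 in sham replicate 2. Dnmt1, whose groups overlapped in IP level, did not overlap here, with 1531, 1571 and 1748 in nano-TiO2 and 1166, 1421 and 1154 in sham (0.38 ± 0.11 SE, adjusted p = 0.181, limma). Uhrf1 had 2221, 2054 and 1861 in nano-TiO2 and 1708, 1765 and 1640 in sham (0.26 ± 0.10 SE, adjusted p = 0.22, limma). Its change was positive in the adjusted level and negative in the IP level. Dnmt3b, with 166, 98 and 109 in nano-TiO2 and 68, 88 and 68 in sham, was the fifth gene without overlap (0.70 ± 0.26 SE, adjusted p = 0.216, limma), at a low read number. Without rounding, at the middle of the factor's bounds, the groups did not overlap in 4 of the 9 genes with a recovered factor. These were Dnmt1, Tet1, Uhrf1 and Kmt2a, each higher in nano-TiO2, where 20.9% of the 13808 genes were so, and none passed. Within the bounds the groups of Tet1 overlapped, as given above, and those of Dnmt1, Uhrf1 and Kmt2a did not.

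In the other genes the groups overlapped in adjusted level. Of these genes, only Kmt2d had overlapped in IP level as well. Tet2, 3.06-fold higher in IP level, had adjusted levels of 228, 260 and 253 in nano-TiO2 and 207, 297 and 152 in sham, with a log2 change of 0.23 ± 0.23 (SE, adjusted p = 0.61, limma), or of 0.05 without rounding. The overlap came from sham replicate 2, which held the highest adjusted value of the 6 libraries. Dnmt3a (0.15 ± 0.13 SE, adjusted p = 0.556), Ezh2 (0.11 ± 0.17 SE, adjusted p = 0.735), Tet3 (0.49 ± 0.17 SE, adjusted p = 0.206) and Kmt2d (0.25 ± 0.13 SE, adjusted p = 0.34) also overlapped between groups. Sham replicate 2 decided the calls in the adjusted level. Without it, Kmt2a (0.84, adjusted p = 0.0275), Tet1 (0.76, adjusted p = 0.0276) and Dnmt1 (0.48, adjusted p = 0.0285) passed, 3 of the 10, where 8.41% of all genes rose (limma). Omitting any of the other libraries gave no call among the 10.

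The factor itself could be recovered, within a relative width of 0.2 in every library, for 9 of the 10 genes, all but Dnmt3b. It rose in 4 of them, where 16.8% of the 13812 genes with a recovered factor rose and 36.0% changed in either direction (limma). These were Tet1 (log2 change 1.71 ± 0.44 SE, adjusted p = 0.0247), Tet2 (1.57 ± 0.38 SE, adjusted p = 0.0245), Kmt2a (1.14 ± 0.25 SE, adjusted p = 0.0245) and Tet3 (0.63 ± 0.17 SE, adjusted p = 0.026). The groups did not overlap in these 4 and in Dnmt3a, each higher in nano-TiO2, which held for 20.6% of all genes with a factor. The factor of Tet1 was 2.11, 1.25 and 1.30 in nano-TiO2 replicates 1, 2 and 3, against 0.53, 0.32 and 0.57 in sham. In Tet2 it was 1.66, 1.39 and 1.37 in nano-TiO2, against 0.54, 0.37 and 0.61 in sham. Sham replicate 2 had the lowest factor of the 6 libraries in both genes. Without nano-TiO2 replicate 1, and likewise without nano-TiO2 replicate 3, none of the 9 passed (adjusted p = 0.0742 and 0.0605 for Tet1, limma). In both settings none of the 13812 genes passed either. The call of Tet3 was also lost without nano-TiO2 replicate 2 (adjusted p = 0.05, limma), where Ezh2 (0.87, adjusted p = 0.0205) rose and Uhrf1 (-0.72, adjusted p = 0.041) fell, and without sham replicate 3 (0.0557). The change in factor was negative for Uhrf1 (-0.51 ± 0.24 SE, adjusted p = 0.108) and Dnmt1 (-0.17 ± 0.24 SE, adjusted p = 0.559). The factor was recovered here as the ratio of normalized to adjusted values, so the 3 changes of a gene are not independent of each other.

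**Figure D3:**
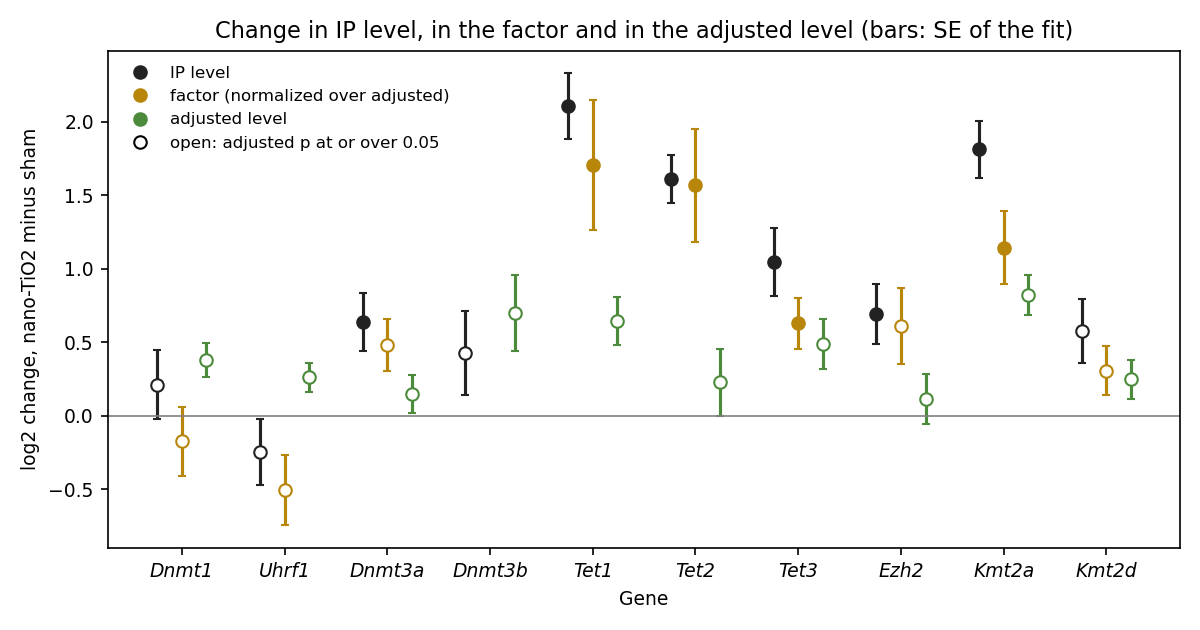
Log2 change, nano-TiO2 minus sham (vertical axis), in IP level (black), factor (gold) and adjusted level (green) for each gene, with the SE of the fit; filled points passed at an adjusted p of 0.05. IP changes run from -0.25 in Uhrf1 to 2.11 in Tet1, adjusted changes are all above 0 and all open, and no factor is shown for Dnmt3b.

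The position of the signal along each transcript was read from the windows. The files do not state in which direction windows are numbered. In the 7 genes that RefSeq places on the minus strand the first step between windows is longer than 25 nucleotides, and in the 3 on the plus strand (Dnmt3a, Dnmt3b and Uhrf1) it is 25. All genes with at least 8 windows and 100 or more normalized reads per gene, averaged over libraries, were then looked at. The 5840 with a longer first step held a median of 29.4% of signal in the first and 16.5% in the last 25% of windows. The 6387 others held 16.8% and 29.1%. The distributions mirror each other, so windows were read as following the genome, with the 3′ side first in minus-strand genes.

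Read this way, 9 of the 10 genes held more than 25% of their reads, as a mean of each group, in the 25% of windows on the 3′ side. For Kmt2d the share there, as mean ± SD over 3 libraries, was 72.5% ± 4.0 in nano-TiO2 and 71.2% ± 3.5 in sham, the highest of the 10. Tet3 held 54.3% ± 2.9 in nano-TiO2 libraries, against 50.0% ± 2.1 in sham libraries. Dnmt1 held 47.3% ± 6.9 in nano-TiO2 and 53.0% ± 1.6 in sham, and Uhrf1 held 45.0% ± 6.2 in nano-TiO2 and 47.9% ± 2.4 in sham. Dnmt3b was the exception, with 24.5% ± 8.5 in nano-TiO2, against 28.7% ± 3.1 in sham (SD, n = 3 each). As group means, Tet2 held more on the 5′ side than on the 3′ side, 42.3% ± 2.3 against 38.3% ± 4.1 in nano-TiO2 and 50.8% ± 6.0 against 32.4% ± 6.2 in sham (SD, n = 3 each). So did Ezh2, with 32.9% ± 1.8 against 31.5% ± 1.9 in nano-TiO2 and 39.6% ± 5.5 against 30.7% ± 7.1 in sham (SD, n = 3 each).

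The share on the 3′ side differed between the groups without overlap in Kmt2a and Tet3. In Kmt2a it was 68.1%, 60.3% and 61.0% in nano-TiO2, against 54.95%, 50.3% and 54.5% in sham. In Tet3 it was 52.7%, 52.7% and 57.7% in nano-TiO2 and 49.1%, 48.5% and 52.4% in sham. On the 5′ side the groups did not overlap in Ezh2, with 32.9% ± 1.8 in nano-TiO2 and 39.6% ± 5.5 in sham, and in Tet2, whose values are given above (SD, n = 3 each). Each of these 4 of 20 shares gave an exact two-sided permutation p of 0.1, the smallest the design allows, and an adjusted p of 0.5 over the 20 shares. How often such shares stay apart over all genes was not counted, so the 4 are not read as particular to these genes. With the first and last 10% of windows in place of 25%, the groups overlapped in all 20.

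**Figure D4:**
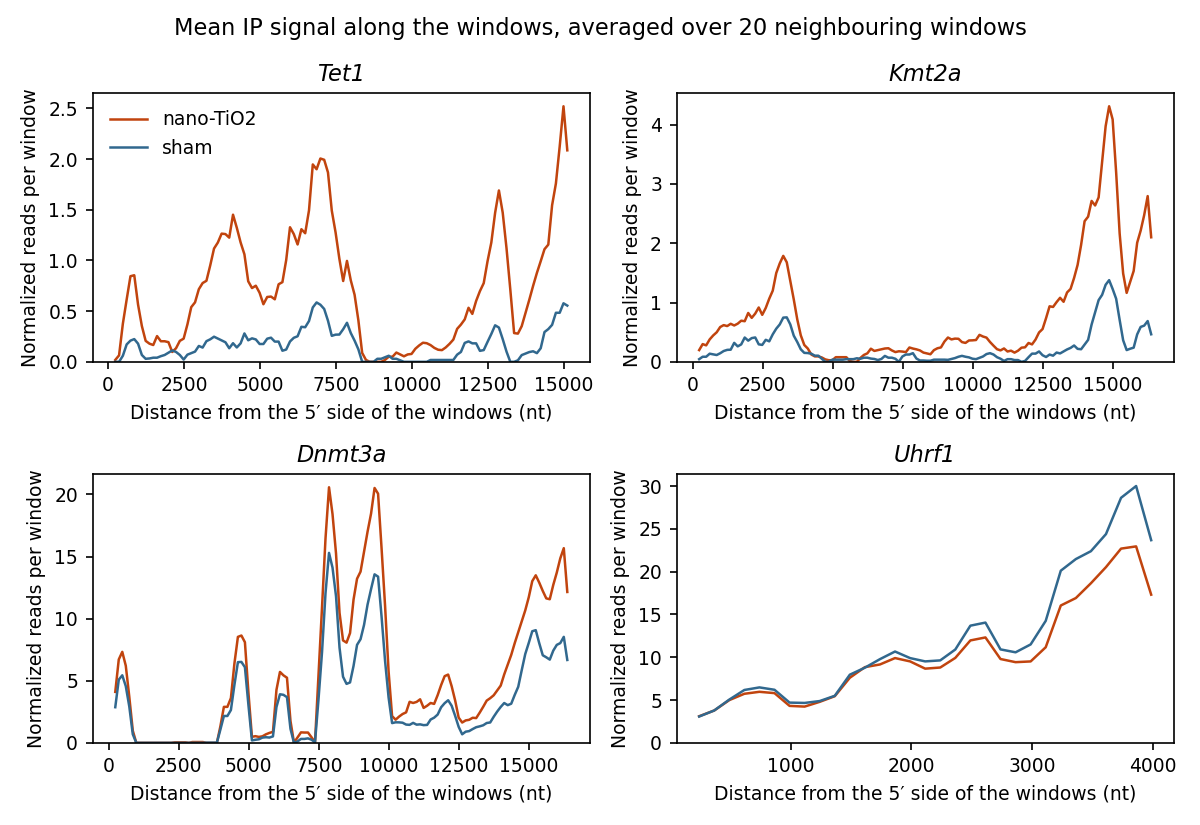
Mean normalized reads per window (vertical axis, averaged over 20 neighbouring windows) in the 3 nano-TiO2 and the 3 sham libraries against the distance from the 5′ side of the windows (horizontal axis, nucleotides) for Tet1, Kmt2a, Dnmt3a and Uhrf1. In Tet1 and Kmt2a the nano-TiO2 line runs above the sham line at each of the main maxima, while in Uhrf1 the sham line is the higher one over most of the windows near the 3′ side.

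Each gene had a stretch of 20 neighbouring windows, about 500 nucleotides, with the most signal over the 6 libraries. In Kmt2d this stretch, close to the 3′ side, held 48.5% ± 2.3 of the gene's nano-TiO2 reads, against 48.6% ± 4.1 in sham (SD, n = 3 each), where an even spread would give 2.51%. Because the strand setting of the counting is not given, reads of an overlapping gene on the other strand could not be told apart there. In Uhrf1 the strongest stretch held 28.6% ± 5.0 in nano-TiO2, against 30.5% ± 1.8 in sham (even spread 11.8%), and in Ezh2 24.98% ± 1.8 in nano-TiO2, against 24.5% ± 6.5 in sham (even spread 7.49%; SD, n = 3 each). In Dnmt3a it lay near the middle of the windows, 47.7% of the way from the 5′ side, and held 11.3% ± 1.3 in nano-TiO2, against 13.6% ± 0.67 in sham (SD, n = 3 each) without overlap. Dnmt1 also did not overlap, with 17.3%, 13.97% and 19.0% in nano-TiO2 and 20.1%, 21.8% and 20.5% in sham. In the other 8 genes the groups overlapped. These stretches were picked by their level in the same libraries, and neither a test nor a share over all genes is given.

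More windows held reads in nano-TiO2 over the whole series, with 1271555, 1484331 and 1414618 windows read in nano-TiO2 replicates 1, 2 and 3 and 1145132, 1097910 and 997523 in sham replicates 1, 2 and 3. Among the 10 genes the number of windows with a read did not overlap between the groups in 6 (Dnmt3a, Tet1, Tet2, Tet3, Ezh2 and Kmt2a), each higher in nano-TiO2, where 36.7% of all genes tested were so. Tet1 had a read in 257, 245 and 247 of its 618 windows in nano-TiO2 replicates 1, 2 and 3, against 84, 65 and 72 in sham replicates 1, 2 and 3. Kmt2a had a read in 221, 299 and 292 of 666 windows in nano-TiO2 and in 134, 96 and 66 in sham, and Tet2 in 178, 199 and 185 of 674 in nano-TiO2 and in 84, 82 and 63 in sham. Tet3 had a read in 287, 404 and 340 of 667 windows in nano-TiO2 and in 251, 230 and 187 in sham. The part of library coverage in these numbers was not tested. Windows read in all 3 nano-TiO2 libraries and in no sham library numbered 46 in Tet1, 35 in Kmt2a, 23 in Tet2 and 17 in Tet3, and 0 to 6 in each of the other 6 genes. This was 10.6% of the windows with a read in any library for Tet1, 7.51% for Kmt2a, 6.78% for Tet2 and 3.43% for Tet3, against 2.22% over all genes. The reverse numbered 0 in Tet1, Kmt2a and Tet3 and 1 in Tet2, and it was 0.147% over all genes. In Uhrf1, by contrast, 143, 149 and 144 of 170 windows held a read in nano-TiO2 and 144, 141 and 140 in sham. At such read numbers a window with no read shows only that its signal was below detection.

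Single windows could be tested in 4 of the genes, the only ones with windows averaging 10 normalized reads or more: 123 in Dnmt3a, 74 in Uhrf1, 47 in Dnmt1 and 24 in Kmt2d. Of these 268 windows 5 rose and none fell, which is 1.87%, against 3.88% of all 250317 windows tested that rose and 11.2% that passed in either direction (limma). Dnmt3a held 4 of them. The window starting at 8676 nucleotides of Dnmt3a had 20.1, 23.2 and 19.3 normalized reads in nano-TiO2 and 2.70, 5.48 and 5.41 in sham, from 18, 28 and 24 reads in nano-TiO2 and 3, 5 and 4 reads in sham. It changed by 2.03 ± 0.44 on the log2 scale (SE, adjusted p = 0.0107, limma), the most of the 5, and its groups were far apart. The other Dnmt3a windows start at 9301, 9626 and 16301 nucleotides, with log2 changes of 1.59, 1.12 and 1.33 (adjusted p 0.0357, 0.0373 and 0.0257, limma). In Kmt2d the window at 582 nucleotides from the 3′ side had 23.4, 29.8 and 28.2 normalized reads in nano-TiO2 and 18.0, 13.1 and 5.41 in sham (log2 change 1.22 ± 0.38 SE, adjusted p = 0.0488, limma).

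In 3 of the 4 genes most windows differed in the same direction. In Dnmt3a 118 of 123 tested windows had a positive log2 change, with a median of 0.53, and in Kmt2d 23 of 24, with a median of 0.60. In Uhrf1 60 of 74 had a negative one, with a median of -0.27, while Dnmt1 was mixed, with 27 positive and 20 negative. Over all 250317 windows tested the median was -0.13. Windows of a gene share its level in each library, so these are not counts of independent changes. When each window's change was compared with that of its gene, none of the 268 passed (limma diffSplice, 4 at an unadjusted p under 0.05), against 0.0465% of all 249423 windows, with 0.0373% higher. In simulated data that comparison recovered 0% of window changes of 1.5-fold, 4.48% of 2-fold and 86.4% of 4-fold. At such recovery smaller shifts along a gene would be missed. There were 17 false calls among 77. Windows were simulated as independent of each other, which neighbouring windows need not be, so the recovery need not hold for the data. In the adjusted values none of the 271 windows tested in these genes passed (limma, 10 at an unadjusted p under 0.05), against 0.00316% of all 253327, with 0.00118% higher. The window of Dnmt3a at 8676 nucleotides had an adjusted log2 change of 1.59 there (adjusted p = 0.369, limma).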

How the data were processed

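The 6 samples, grouped by title, are 3 nano-TiO2 and 3 sham pools of fetal hearts after m6A pull-down. Per the labels' protocols, total RNA (3 µg) was fragmented to about 250 to 350 nucleotides, pulled down with 5 µg of antibody and amplified over 10 PCR and 8 indexing cycles. The submitters' processing notes list the build GRCm39 and the tools DESeq2 1.34.0, HISAT2 2.2.1 and Salmon 1.5.2, with no role for each. The width of a window, the strand setting and whether a read counts in several windows were not given in the sources used here. The deposited normalized table holds an IP signal per window, in which 100% of values were whole multiples of 1 step per library (tolerance 0.0001); whole reads were recovered from these steps. A further table was identical to it. The authors' adjusted table holds scores in whole numbers, equal after rounding to the normalized values over 1 factor per gene and library, with 0 exceptions in 162014 pairs of gene and library.

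Windows were added up for each gene. Features averaging 10 or more were tested with limma 3.58.1 (trend, no covariates, R 4.3.3) on log2(value + 1), a scale that understates fold changes of low genes. edgeR 4.0.16 and DESeq2 1.42.0 on the recovered reads were alternatives and called 6932 and 7316 genes, against 6676 with limma. Exact permutation tests used SciPy 1.17.1. In simulated data for the IP level (18566 genes), the test recovered 4.48% of changes of 1.5-fold, 32.8% of those of 2-fold and 80.3% of those of 4-fold, with 8 false calls among 86. For the adjusted level (19361 genes) these shares were 28.4%, 55.2% and 83.3%, with 18 false calls among 129. Only a small part of the genes was changed in these simulations, unlike the 6676 of 18566 called in IP level. The share of changed genes moves the adjusted p, so the recovery need not hold for the data.

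The 10 genes, the tests and the alternatives were chosen with earlier results of these data known. Named besides the 10 were the 2 genes with the most similar profile. Strands came from RefSeq by symbol for all 10 genes. As 0 of the 48505 IDs matched a RefSeq table, pathway and cell type lists planned by symbol were not analysed here, and no coordinates or sequences are given. Read numbers carry counting error, and PCR copies are not independent molecules.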

Additional observations from a re-analysis of the deposited data

How the results depend on the processing

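In IP level 6 of the 10 genes rose, and 6 did with TMM, edgeR, DESeq2, either other pseudocount, both other filters or the mean of log2 values over windows. The count was 4 to 7 when a library was left out and 3 with the length trend removed, and none of the 10 fell in any of these. Leaving out a library also lowered the calls over all genes, with 3166 to 4064 rising of 18444 to 18679 tested. Calls over all genes were 4450 higher and 2226 lower as scaled, 8005 and 169 with equal totals, 6300 and 1012 with equal totals apart from the 4 most abundant genes, 3081 and 2815 after quantile normalization, 3821 and 3495 with DESeq2, and 2115 and 2369 without the length trend. Direction in IP level turned without the length trend for Dnmt1 (-0.40), Dnmt3a (-0.44), Tet3 (-0.030) and Kmt2d (-0.59), and for Uhrf1 with equal totals (0.25), also apart from the 4 most abundant genes (0.024). Leaving out a library moved Dnmt1 between -0.0034 and 0.38 in IP level, and in adjusted level Ezh2 between -0.044 and 0.28 and Tet2 between -0.0079 and 0.47. Adjusted direction also turned with TMM for Dnmt3a (-0.015) and Ezh2 (-0.049), and with quantile normalization for Ezh2 (-0.058). The cause of these turns was not tested. Taking out the rounding of adjusted windows, an alternative chosen after seeing the data, left 0 genes called and turned no direction. Leaving out libraries gave 0 to 3 genes called in adjusted level, 0 to 5 in the factor, 1 to 5 windows in IP level, 2 to 4 of 4 ratios and 4 to 8 of 20 shares without overlap. Leaving out a library cannot make separate groups overlap, so the counts of ratios and shares could only stay or rise. Over all genes the factor was called in 4979, against 0 without nano-TiO2 replicate 1 or 3, 1692 without sham replicate 1 and 1428 without sham replicate 2, and the adjusted level in 0, against 1895 without sham replicate 2. The factor was called in 4708 genes without nano-TiO2 replicate 2 and in 4251 without sham replicate 3. Leaving out a library gave 12133 to 21656 windows called in IP level over all genes, of 245339 to 254427 tested. Windows called in IP level were 5 of 268 (28052 of 250317 over all genes), against 9 of 1483 at a mean of at least 1 (27133 of 1024856), 0 at 50 (none was tested, 22337 of 57169), 8 with TMM (20759 of 250317) and 2 with quantile normalization (11004 of 250317). Adjusted values left 1 ratio without overlap, and the outer 10% of windows 0 shares.

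Same-numbered libraries did not deviate together (correlations across genes of -0.37, 0.18 and 0.02), so the numbers were not taken as pairs. With the replicate block, 6 of the genes were called in IP level, 0 in adjusted level and 3 in the factor, with 7 windows in IP level; over all genes the counts were 6415, 0 and 1793.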
